A study of Arabidopsis thaliana with 6 samples.

Results

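Plant cells keep a small genome in the mitochondrion and another in the chloroplast, and 32 of the 18734 genes in the deposited count table are encoded there. They were taken by their identifiers, which begin with ATMG for the mitochondrial genome (20 genes) and with ATCG for the chloroplast genome (12 genes). The mitochondrial genes comprise 3 ribosomal RNA (rRNA) genes, 12 named protein-coding genes and 5 reading frames or unnamed genes. All 12 chloroplast genes are protein-coding, and no chloroplast rRNA gene was analysed here. All 32 passed the filter on low counts and were tested.

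The RNA came from the tips of primary roots, 0.5 cm long, of Arabidopsis thaliana seedlings 5 days after planting, grown on plates under continuous light. The mutant ore15-2 has the gene ORE15, which encodes a transcription factor of the PLATZ family, interrupted by T-DNA in the Columbia-0 background, and the comparison group is the wild type of that background (Col). Each genotype has 3 libraries, but the labels give 2 seedlings per genotype, so the libraries may be technical repeats and p-values measure the spread between these libraries. The labels name 1 mutant line and no second allele. Total RNA with an integrity number of at least 6.7 was enriched for poly(A) tails and made into libraries with a stranded kit.

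Mitochondrial genomes of plants encode core subunits of the respiratory complexes, some ribosomal proteins and their own rRNAs. Chloroplast genomes encode photosystem subunits, the large subunit of Rubisco, ATP synthase subunits and parts of the gene expression machinery. Most other proteins of both organelles are made from nuclear genes. Roots hold non-green plastids with the same genome as leaf chloroplasts. In plant organelles, unlike for nuclear messengers, a poly(A) tail usually marks an RNA for decay, and such tails are short and found on few molecules, so a poly(A)-selected library holds only a selected fraction of organelle RNA.

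Libraries 1 and 2 of ore15-2 stood apart from the rest. Total counts were 6706712, 6396903 and 16503138 in ore15-2 replicates 1, 2 and 3, against 17433440, 20333352 and 19285639 in Col replicates 1, 2 and 3. Depth and organelle share therefore moved together, and the part of depth in the results below was not tested. AT1G31040, which background knowledge pairs with ORE15, had 0, 0 and 1 counts in ore15-2, against 13, 12 and 8 in Col. The labels name root meristem stem cells, and 7 of 7 markers of the root meristem and stem cell niche were in the table, with a summed share of 102.5 to 120.2 CPM in ore15-2 and 121.3 to 130.6 CPM in Col. CPM here is the count of a gene in every 1000000 counts of its library, without further scaling. By edgeR, which scales library sizes, log2 fold changes of these 7 markers ran from -0.60 (WOX5) to 0.31 (PLT2), with no adjusted p under 0.05. Markers of root cap (4 of 4; 34.9 to 44.4 in ore15-2, 29.7 to 37.6 in Col) and of differentiated root (4 of 4; 304.2 to 383.4 in ore15-2, 301.2 to 355.0 in Col) were also present, and none of 3 pollen and flower markers was in the table. Of the root cap markers, FEZ was higher in ore15-2 (6.11, 6.25 and 3.82 CPM, against 3.33, 2.80 and 2.28 in Col; log2 fold change 1.13, edgeR adjusted p = 0.0472). Of the differentiated root markers, SUC2 was lower in ore15-2 (6.71, 6.10 and 14.0 CPM, against 23.0, 34.1 and 32.7 in Col; log2 fold change -1.47, edgeR adjusted p = 0.00595). COBL9 (0.81, adjusted p = 0.0232) and EXPA7 (0.59, adjusted p = 0.0404) were higher. The part of these markers in the organelle results was not tested.

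The sequences below show the 3 mitochondrial rRNAs, which hold nearly all organelle counts, around the longest run of A that each contains, because the libraries were selected by poly(A). They were read from the RefSeq TAIR10.1 assembly. The authors' build was TAIR10, whose mitochondrial sequence may differ in places. Capitals mark the run of A, and all are written in the direction of the gene.
RRN5 (5S rRNA, whole gene, mitochondrial:126001-126118, minus strand): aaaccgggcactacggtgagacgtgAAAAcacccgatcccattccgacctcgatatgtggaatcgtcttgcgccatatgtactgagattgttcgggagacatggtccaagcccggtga
RRN18 (18S rRNA, mitochondrial:127968-128012, minus strand): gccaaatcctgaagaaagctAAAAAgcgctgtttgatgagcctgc
RRN26 (26S rRNA, mitochondrial:142049-142094, minus strand): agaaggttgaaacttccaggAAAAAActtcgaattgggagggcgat

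The longest run was 4 bases in RRN5, 5 in RRN18 and 6 in RRN26. The part of such runs in what the libraries captured was not tested.

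Counts on all 32 genes made up 2.94%, 3.24% and 0.330% of the library in ore15-2 replicates 1, 2 and 3, against 0.185%, 0.217% and 0.253% in Col. The rRNAs alone took 2.82%, 3.11% and 0.324% in ore15-2 and 0.179%, 0.210% and 0.244% in Col. All 3 ore15-2 libraries were above all Col libraries, with replicate 3 close to the highest Col library. The mean was 2.09% ± 1.53 in ore15-2 and 0.211% ± 0.0329 in Col (SD, n = 3 each). The difference in mean log2 share was 2.76, a 6.77-fold ratio of geometric means, and an exact two-sided permutation test gave p = 0.1, the smallest that 3 libraries against 3 allow.

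The 17 other mitochondrial genes together took 0.0846%, 0.0864% and 0.00390% in ore15-2, against 0.00394%, 0.00429% and 0.00533% in Col. Replicates 1 and 2 of ore15-2 were far above Col, and the Wilson 95% intervals of replicate 3 and the lowest Col library overlapped. The 12 chloroplast genes had their replicate 3 below every Col library, with 0.0387%, 0.0362% and 0.00184% in ore15-2 and 0.00233%, 0.00259% and 0.00315% in Col. Genotype differences in mean log2 share were 2.77 (6.82-fold, exact two-sided permutation p = 0.4) for the other mitochondrial genes and 2.36 (5.13-fold, p = 0.4 by the same exact test) for the chloroplast genes. Without ore15-2 replicates 1 and 2, the differences were 0.63 for the rRNAs, -0.20 for the other mitochondrial genes and -0.54 for the chloroplast genes. The intervals cover counting error only.

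**Figure D1:**
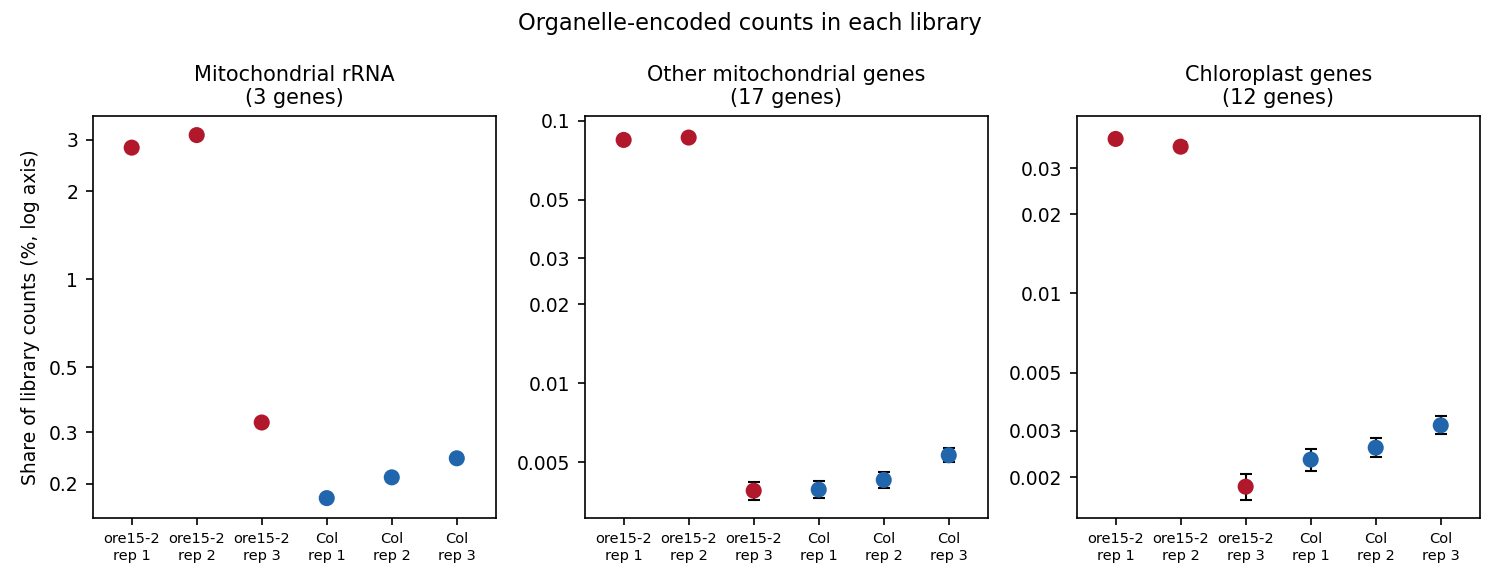
Share of all counts of a library (percent, log axis) held by the mitochondrial rRNAs, the other mitochondrial genes and the chloroplast genes. Red points are ore15-2 libraries, blue points are Col libraries and bars are Wilson 95% intervals; ore15-2 replicates 1 and 2 lie far above the rest in each panel, and ore15-2 replicate 3 lies above Col for the rRNAs (0.324%) and below Col for the chloroplast genes (0.00184%).

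In the edgeR quasi-likelihood test with Benjamini-Hochberg adjustment over 18726 genes, all 20 mitochondrial genes and 6 of the 12 chloroplast genes were higher in ore15-2 at an adjusted p under 0.05, and no member was lower. Of all genes tested, 6.47% were called higher and 3.43% lower. The median log2 fold change was 3.89 over the mitochondrial genes and 3.40 over the chloroplast genes, beside 0.00 over all genes tested. These log2 fold changes use scaled library sizes (TMM factors of 0.923, 0.786 and 1.06 in ore15-2 and 1.11, 1.08 and 1.09 in Col) and compare mean counts, not mean logs. As a log2 ratio of mean unscaled shares in place of a difference of mean log2 shares, the class differences were 3.30 for the rRNAs, 3.69 for the other mitochondrial genes and 3.25 for the chloroplast genes. DESeq2 called 20 mitochondrial and 9 chloroplast genes (8.89% of all genes higher), and limma-voom called 2 and 1 (6.16%), with median log2 fold changes of 2.16 and 1.52. With limma on log2(RPKM + 1), which has no rRNA, 1 of 17 mitochondrial and 1 of 12 chloroplast genes were called higher (2.61% of all genes), with medians of 2.44 and 1.82. That scale moved the median log2 fold change of all genes to -0.21 and the split of calls to 469 higher and 641 lower, beside 1211 and 643 by edgeR.

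Leaving out ore15-2 replicate 1 (3.52% of all genes called higher), Col replicate 1 (2.39%), Col replicate 2 (2.23%) or Col replicate 3 (2.95%) left 0 mitochondrial and 0 chloroplast calls by edgeR, although all 20 mitochondrial genes and 9 to 11 of the chloroplast genes kept an unadjusted p under 0.05, beside 17.1% to 20.7% of all genes. The median log2 fold change in those fits was 3.57 to 4.08 over the mitochondrial genes and 3.03 to 3.64 over the chloroplast genes. Without ore15-2 replicate 2, 13 and 2 were called (7.30% of all genes), and without ore15-2 replicate 3 all 20 and all 12 were called (18.7% of all genes). Without replicates 1 and 2 together, where the lone ore15-2 library is assumed to vary like the Col libraries, 3 mitochondrial genes were higher (RRN26, RRN18 and ORF149) and NAD5 (ATMG00060) was lower. On the same footing the chloroplast gene RPL16 was higher, and ATPA, PSAB, ATPB and RBCL were lower, when 11.0% of all genes were called higher and 5.63% lower. The medians of that fit were -0.32 over the mitochondrial genes and -0.61 over the chloroplast genes.

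**Figure D2:**
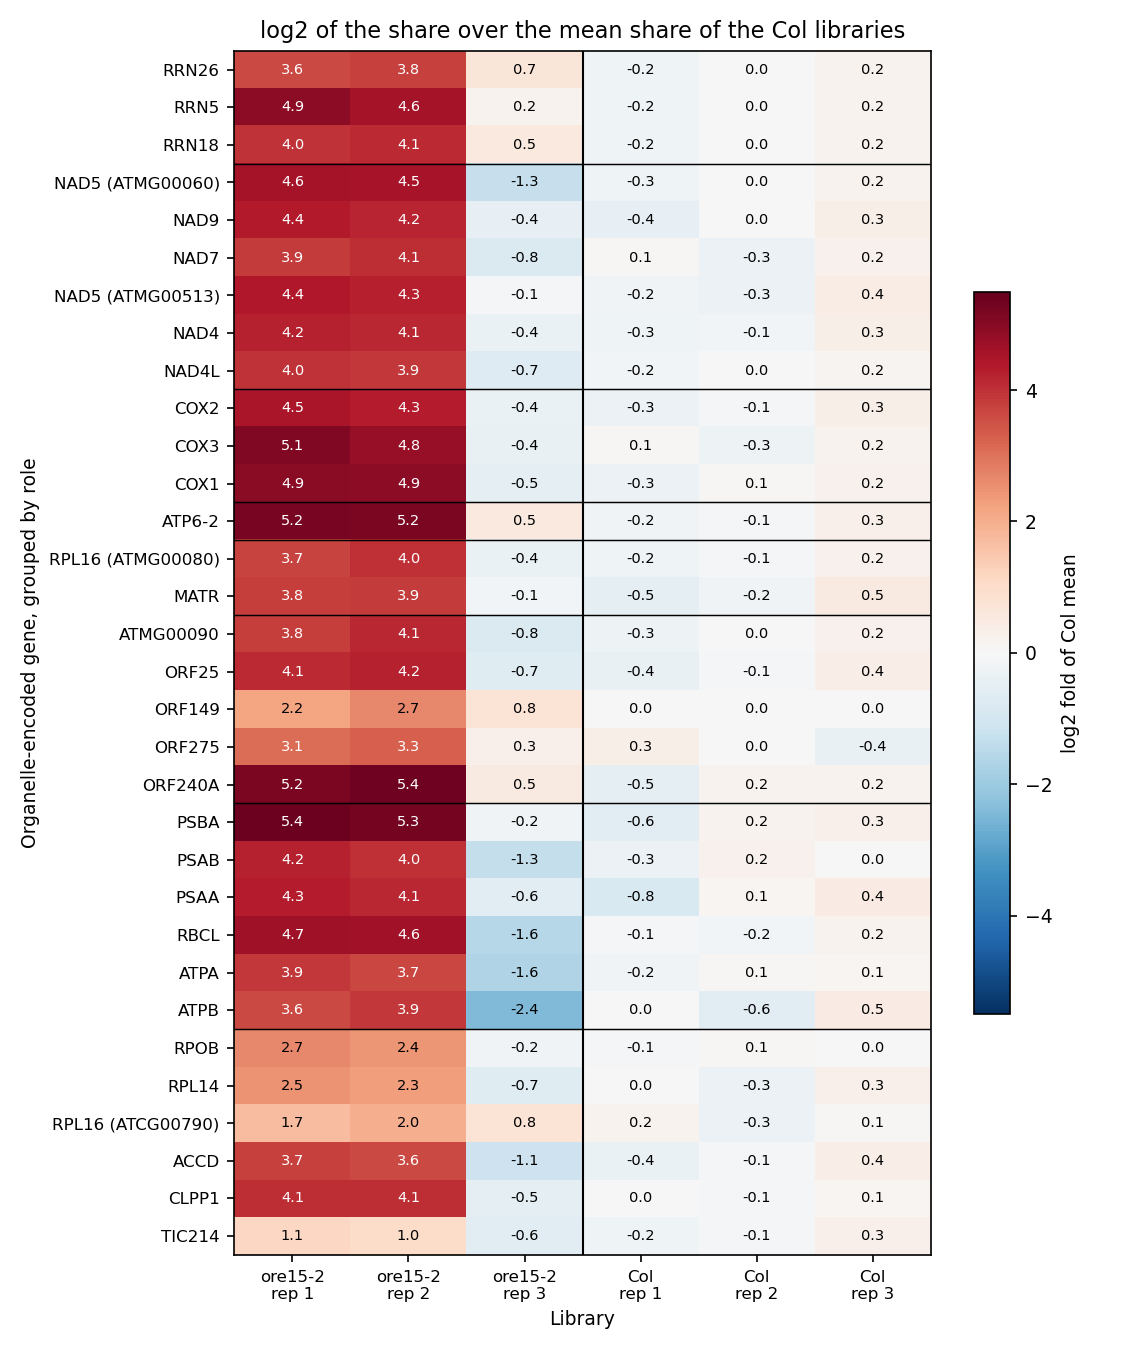
log2 of each gene's share of counts over the mean share of the Col libraries, by library, for the 32 organelle-encoded genes grouped by role. The ore15-2 libraries 1 and 2 are high in every row, the least in TIC214 (2.20-fold and 2.01-fold), while ore15-2 replicate 3 is near or below Col in most rows.

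RRN26 and RRN18 are the large and small rRNAs of the mitochondrial ribosome, and RRN5 is its 5S rRNA. RRN26 (mitochondrial:140797-143965, minus strand) had 18105, 20096 and 2324 CPM in ore15-2 and 1243, 1465 and 1703 in Col. RRN18 (mitochondrial:126289-128223, minus strand) had 10010, 10966 and 913 CPM in ore15-2, and 541, 635 and 738 in Col. Both were higher in all 3 ore15-2 libraries than in any Col library. RRN5 had 91.6, 72.5 and 3.51 CPM in ore15-2, against 2.58, 3.05 and 3.53 in Col, so its replicate 3 lay within the Col range. The log2 fold changes were 3.55 ± 0.85 for RRN26 (SE; edgeR adjusted p = 0.0314), 3.87 ± 0.87 for RRN18 (0.0237) and 4.48 ± 0.97 for RRN5 (0.0206).

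In every library the rRNAs held nearly all mitochondrial counts. They made up 97.1%, 97.3% and 98.8% of mitochondrial counts in ore15-2, against 97.8%, 98.0% and 97.9% in Col. The difference in the mean log2 ratio of rRNA to other counts was -0.01 (exact two-sided permutation p = 1), with ore15-2 replicates 1 and 2 below the Col range and replicate 3 above it. Within the rRNAs, the ratio of RRN26 to RRN18 counts was 1.81, 1.83 and 2.55 in ore15-2 and 2.30, 2.31 and 2.31 in Col. RRN5 held 0.325%, 0.233% and 0.108% of rRNA counts in ore15-2, against 0.144%, 0.145% and 0.144% in Col. The Col libraries thus agreed closely on the makeup of their rRNA, and each ore15-2 library lay outside their range in both of these measures.

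Per length, as counts per kilobase in every 1000000 counts of the genes in the deposited RPKM table, RRN26 had 5910, 6577 and 738.9 in ore15-2 and 394.6, 465.4 and 541.1 in Col. RRN18 was close to it, at 5352, 5878 and 475.4 in ore15-2 and 281.6, 330.5 and 383.9 in Col. RRN5, of which a ribosome holds as many copies as of the others, was counted at 802.6, 637.6 and 30.01 in ore15-2 and 22.0, 26.0 and 30.1 in Col. These levels were computed from the counts and TAIR10.1 gene lengths of 3169, 1935 and 118 bases, because the deposited RPKM table has no row for the rRNAs.

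Complex I, the NADH dehydrogenase that feeds electrons into the respiratory chain, was represented by 6 identifiers, and all 6 were called higher, with log2 fold changes of 3.59 to 4.26. Their folds over the Col mean were 14.5 to 23.9 in ore15-2 replicate 1, 14.7 to 23.4 in replicate 2 and 0.411 to 0.95 in replicate 3. Both identifiers named NAD5 belong to a messenger that plant mitochondria join from separate transcripts. ATMG00060 had 45.8, 44.9 and 0.788 CPM in ore15-2, against 1.61, 1.97 and 2.18 in Col, and its replicate 3 was the lowest of the 17 non-rRNA genes relative to Col. ATMG00513 had 63.8, 58.6 and 2.85 in ore15-2 and 2.64, 2.41 and 3.94 in Col, so that its replicate 3 lay inside the Col range. The 2 identifiers of 1 messenger therefore gave unlike values in replicate 3, from 13 and 47 counts.

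NAD9 had 35.3, 31.1 and 1.27 CPM in ore15-2 and 1.26, 1.72 and 2.18 in Col. NAD4L, the smallest complex I gene here, had 25.9, 24.4 and 1.03 in ore15-2, against 1.49, 1.62 and 1.87 in Col. In both, replicates 1 and 2 were far above every Col value, and replicate 3 was level with the lowest of them for NAD9 and below all of them for NAD4L. NAD7 (57.7, 66.9 and 2.30 in ore15-2, against 4.13, 3.15 and 4.67 in Col) also had its replicate 3 below Col. So did NAD4 (57.7, 53.8 and 2.36 in ore15-2, against 2.58, 2.80 and 3.84 in Col), from 39 counts, against 45 in Col replicate 1. Called log2 fold changes were 3.96 ± 0.97 for NAD9 (SE; edgeR adjusted p = 0.0343), 3.59 ± 0.94 for NAD4L (0.0428), 3.71 ± 0.95 for NAD7 (0.0398) and 3.91 ± 0.94 for NAD4 (0.0320).

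Cytochrome c oxidase, the terminal enzyme of the respiratory chain, has its catalytic core encoded by COX1, COX2 and COX3, and all 3 were called higher. COX1 had the highest RPKM of the mitochondrial genes other than rRNA in ore15-2 replicates 1 and 2. It had 163.1, 162.1 and 3.70 CPM in ore15-2 and 4.19, 5.56 and 6.17 in Col (log2 fold change 4.69 ± 1.08, SE; edgeR adjusted p = 0.0265). COX1 therefore held 19.3%, 18.8% and 9.47% of the counts of these 17 genes in ore15-2, against 10.6%, 13.0% and 11.6% in Col. COX3 had 58.7, 47.8 and 1.33 CPM in ore15-2, and 1.84, 1.43 and 1.97 in Col. COX2 had 57.0, 50.02 and 1.94 in ore15-2, against 2.01, 2.41 and 3.16 in Col. For all 3 genes ore15-2 replicate 3 lay below every Col library, at 0.697 to 0.767 times the Col mean. For COX2 this rests on 32 counts, against 35 in Col replicate 1, and for COX3 on 22 counts, against 29 in Col replicate 2.

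ATP6-2, a copy of the gene for subunit 6 of the ATP synthase, had 37.0, 36.4 and 1.45 CPM in ore15-2 and 0.860, 0.934 and 1.19 in Col. Its folds of 37.1 and 36.6 in replicates 1 and 2 were the highest of the named mitochondrial protein-coding genes, and replicate 3 was also above every Col library (1.46 times the Col mean, from 24 counts). The log2 fold change was 4.90 ± 1.04 (SE; edgeR adjusted p = 0.0190). The mitochondrial genome holds a second atp6 copy that shares 761 bases with it, so counts of this gene are uncertain between the copies. The sequences printed here run across the point where the copies become identical, with capitals for the part before it, where they differ.
ATP6-2 (mitochondrial:265198-265257, minus strand): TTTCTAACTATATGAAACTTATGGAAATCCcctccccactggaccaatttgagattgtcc
second atp6 copy (mitochondrial:49790-49849, plus strand): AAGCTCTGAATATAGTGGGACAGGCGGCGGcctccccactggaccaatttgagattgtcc

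Mitochondrial RPL16 (ATMG00080), a protein of the large ribosomal subunit, had 25.8, 31.1 and 1.51 CPM in ore15-2, against 1.66, 1.87 and 2.28 in Col. MATR, a maturase that serves intron splicing, had 42.0, 43.3 and 2.73 in ore15-2 and 2.12, 2.61 and 4.25 in Col. Both were called higher, with log2 fold changes of 3.58 ± 0.90 (SE; edgeR adjusted p = 0.0379) and 3.57 ± 0.87 (0.0335). Replicate 3 was below Col for RPL16 (25 counts, against 29 in Col replicate 1) and within the Col range for MATR.

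All 5 reading frames or unnamed genes were called higher, and they spanned the widest range of the mitochondrial roles. ORF240A had 41.2, 46.3 and 1.58 CPM in ore15-2 and 0.803, 1.28 and 1.30 in Col, with a log2 fold change of 4.98 ± 1.06 (SE; edgeR adjusted p = 0.0194), the largest of the mitochondrial genes. ORF149 gave the smallest, 2.32 ± 0.48 (adjusted p = 0.0164). It had 22.8, 32.5 and 8.73 CPM in ore15-2, against 5.22, 5.11 and 5.08 in Col. The 3 Col values of ORF149 were nearly equal, and all 3 ore15-2 values were above them. Its part of the non-rRNA mitochondrial counts was 2.70%, 3.76% and 22.4% in ore15-2, against 13.2%, 11.9% and 9.54% in Col, so ore15-2 replicate 3 had the opposite makeup from replicates 1 and 2.

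ATMG00090, which the deposited table leaves unnamed, had 68.7, 86.4 and 2.85 CPM in ore15-2 and 4.13, 4.97 and 5.76 in Col. ORF25 had 34.3, 37.5 and 1.27 in ore15-2, against 1.49, 1.92 and 2.59 in Col. For these 2 genes replicate 3 was below every Col library. ORF275 had 9.24, 10.8 and 1.33 CPM in ore15-2 and 1.38, 1.13 and 0.830 in Col, and its replicate 3 lay within the Col range. Log2 fold changes were 3.71 ± 0.95 for ATMG00090 (SE; edgeR adjusted p = 0.0397), 3.87 ± 0.98 for ORF25 (0.0382) and 2.81 ± 0.75 for ORF275 (0.0451).

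Among the chloroplast genes, the 6 for photosynthesis and ATP synthase stood at 12.5 to 42.1 times the Col mean in ore15-2 replicate 1, 12.9 to 38.4 times in replicate 2 and 0.188 to 0.883 times in replicate 3. By edgeR, PSBA, PSAA, PSAB and RBCL were called higher, and ATPA and ATPB were not. DESeq2 also called ATPA, RPOB and ACCD. PSBA, the D1 protein of the photosystem II reaction centre, had 95.3, 87.1 and 2.00 CPM in ore15-2, against 1.49, 2.56 and 2.75 in Col. Its log2 fold change of 5.05 ± 1.12 (SE; edgeR adjusted p = 0.0231) was the largest of all 32 genes. PSBA held 24.6%, 24.1% and 10.9% of chloroplast counts in ore15-2 and 6.39%, 9.87% and 8.72% in Col.

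RBCL, the large subunit of the carbon-fixing enzyme Rubisco, had 63.7, 61.6 and 0.848 CPM in ore15-2 and 2.41, 2.26 and 2.90 in Col (log2 fold change 4.35 ± 1.11, SE; edgeR adjusted p = 0.0392). Replicate 3 was at 0.336 of the Col mean. PSAA and PSAB form the core of photosystem I and lie next to each other in the chloroplast genome (chloroplast:39605-41857 and chloroplast:37375-39579, both minus strand). PSAA had 44.6, 39.9 and 1.45 CPM in ore15-2, and 1.26, 2.46 and 3.06 in Col. PSAB had 42.3, 36.6 and 0.909 in ore15-2, against 1.78, 2.66 and 2.28 in Col. Both were far above Col in replicates 1 and 2, while replicate 3 was within the Col range for PSAA and below it for PSAB. Adjusted p was 0.0382 for PSAA and 0.0454 for PSAB (edgeR).

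ATPA and ATPB, the alpha and beta subunits of the chloroplast ATP synthase, missed the threshold (edgeR adjusted p = 0.0625 and 0.0787, log2 fold changes 3.42 ± 1.00 and 3.39 ± 1.06, SE). ATPA had 22.4, 19.5 and 0.485 CPM in ore15-2 and 1.32, 1.57 and 1.66 in Col. ATPB had 16.1, 19.1 and 0.242 in ore15-2, against 1.26, 0.836 and 1.76 in Col. Their replicates 1 and 2 were far above Col and their replicate 3 was well below it. The value of ATPB in replicate 3 rests on 4 counts (Wilson 95% interval 0.0943 to 0.623 CPM) and was the lowest of the 32 genes relative to Col.

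The other 6 chloroplast genes reached 2.20 to 16.9 times the Col mean in ore15-2 replicate 1 and 2.01 to 16.6 times in replicate 2, and edgeR called CLPP1 and RPL16. CLPP1, the proteolytic subunit of a plastid protease, had 33.0, 32.4 and 1.33 CPM in ore15-2 and 1.89, 1.82 and 2.13 in Col (log2 fold change 3.77 ± 0.94, SE; edgeR adjusted p = 0.0364). ACCD, a subunit of the acetyl-CoA carboxylase of fatty acid synthesis, had 32.1, 29.4 and 1.09 in ore15-2, against 1.84, 2.26 and 3.06 in Col, and just missed the threshold (3.37 ± 0.94, adjusted p = 0.0540). These 2 genes resembled the photosynthesis genes in size of fold.

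The gene expression genes had smaller folds over Col in replicates 1 and 2 than the photosynthesis genes, a difference that was not tested. RPOB, a subunit of the plastid-encoded RNA polymerase, had 10.9, 9.38 and 1.51 CPM in ore15-2 and 1.66, 1.82 and 1.71 in Col. RPL14, a ribosomal protein, had 7.60, 6.57 and 0.848 in ore15-2, against 1.32, 1.08 and 1.66 in Col. Neither passed the threshold (adjusted p = 0.0702 and 0.123, edgeR). Chloroplast RPL16 (ATCG00790), another ribosomal protein, had 8.50, 10.5 and 4.42 CPM in ore15-2, and 2.98, 2.07 and 2.75 in Col. It was the only chloroplast gene in which every ore15-2 library was above every Col library, and its log2 fold change was 1.78 ± 0.39 (SE; edgeR adjusted p = 0.0212).

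TIC214, named as a component of the protein import machinery of the inner envelope, gave the smallest difference. It had 10.6, 9.69 and 3.27 CPM in ore15-2, against 4.13, 4.52 and 5.81 in Col, with a log2 fold change of 0.87 ± 0.44 (SE; edgeR adjusted p = 0.242). TIC214 is by far the longest of these genes and took the most counts in each Col library, with 17.7%, 17.5% and 18.4% of chloroplast counts. In ore15-2 its part was 2.74%, 2.68% and 17.8%, so replicate 3 lay within the Col range, unlike replicates 1 and 2.

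Across both organelles, 6 of the 32 genes had every ore15-2 library above every Col library, beside 8.70% of all genes tested. They were RRN26, RRN18, ORF149, ORF240A, ATP6-2 and chloroplast RPL16. In ore15-2 replicate 3 alone, 13 of the 17 non-rRNA mitochondrial genes and 11 of the 12 chloroplast genes were below the Col mean, with median folds of 0.767 and 0.635. The rRNAs were at 1.15 to 1.58 times the Col mean there. The share of all genes below the Col mean in that library was not counted, and genes of 1 library are not separate observations. Chloroplast genes made up 31.4%, 29.5% and 32.1% of organelle counts other than rRNA in ore15-2, against 37.2%, 37.7% and 37.2% in Col, the lower value being common to all 3 ore15-2 libraries.

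The order of genes by level was also not the same in all libraries. On the RPKM scale, which divides by gene length, COX1 (107 and 106) was the highest of the 29 genes with a value in ore15-2 replicates 1 and 2, followed by PSBA at 92.8 in replicate 1 and NAD5 (ATMG00060) at 85.9 in replicate 2. In ore15-2 replicate 3 and in Col the highest was ORF149, with 19.5 RPKM in ore15-2 replicate 3, and 11.7, 11.4 and 11.4 RPKM in Col. Chloroplast RPL16 came next, with 10.9 RPKM in ore15-2 replicate 3 and 7.36, 5.10 and 6.78 in Col, and in Col replicate 2 it lay below NAD4L (5.39). The lowest RPKM were those of TIC214 in replicates 1 and 2 (2.04 and 1.88) and of ATPB in replicate 3 (0.163), against RPOB in Col replicate 1 (0.520) and replicate 3 (0.535) and ATPB in Col replicate 2 (0.562).

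**Figure D3:**
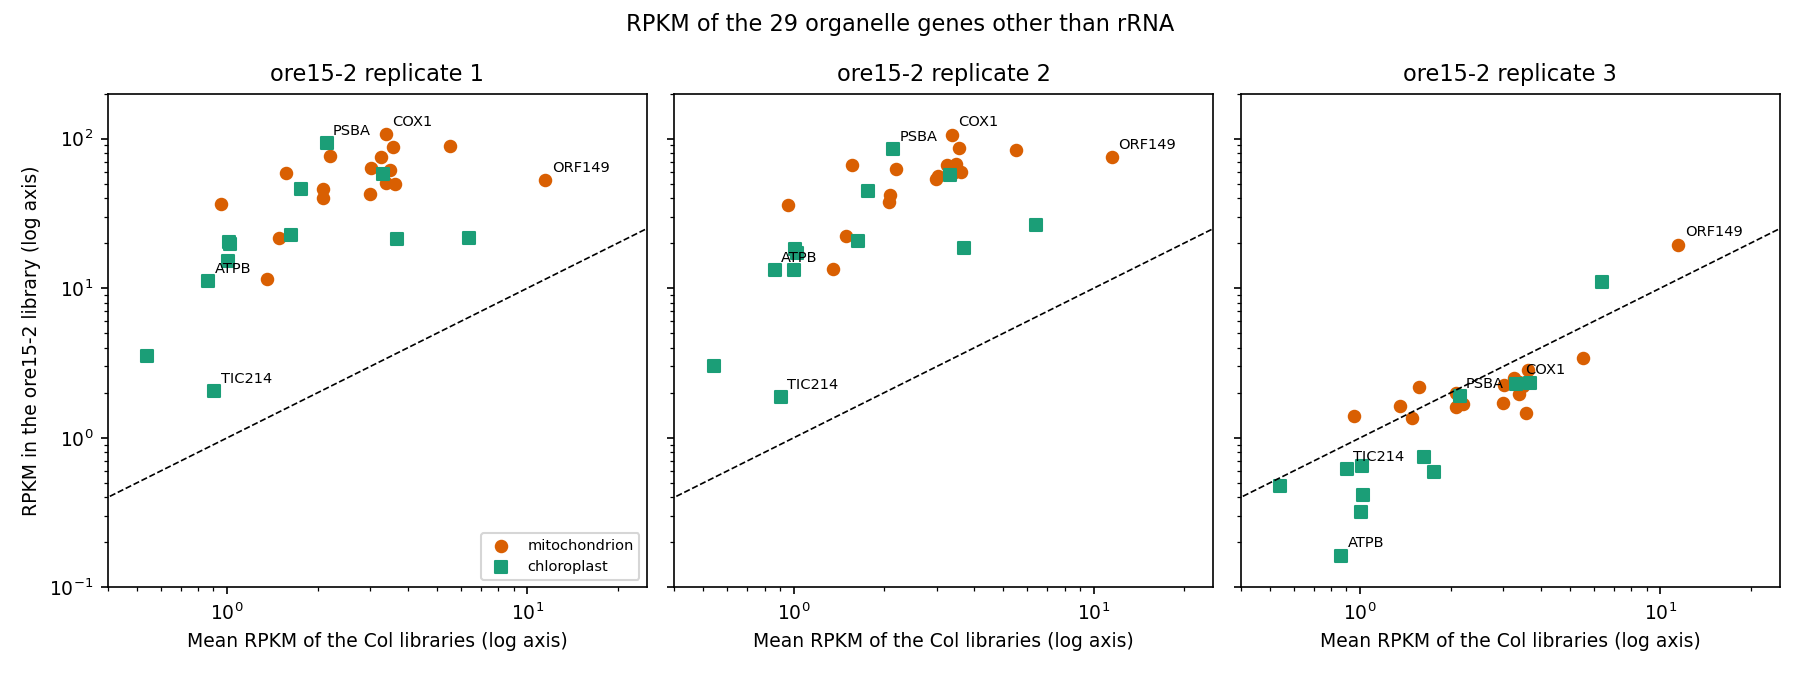
RPKM of the 29 organelle-encoded genes other than rRNA in each ore15-2 library (vertical, log axis) against the mean RPKM of the Col libraries (horizontal, log axis), with a dashed line of equality. In replicates 1 and 2 all points lie above the line and COX1 (107 and 106 RPKM) is highest; in replicate 3 most points lie on or under it, and ORF149 (19.5 RPKM) is highest.

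Some reads of mitochondrial genes cannot be placed from sequence alone, because chromosome 2 of the nuclear genome carries a large copy of the mitochondrial genome. In TAIR10.1, 100% of the 50-base windows of COX3 and NAD4 also occur in the nuclear genome, as do 94.7% of those of NAD7 and 94.8% of those of MATR. By contrast 100% of the windows of COX1, NAD9 and NAD4L, and 99.6% to 100% of those of the rRNAs, occur once. Genes with unique windows were also high in replicates 1 and 2: COX1, NAD9 and NAD4L stood at 15.6 to 30.7 times the Col mean in ore15-2 replicate 1, 14.7 to 30.6 times in replicate 2 and 0.620 to 0.740 times in replicate 3. How the authors' counting treated reads with several placements is not given in the sources used here.

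Inside or beside that copy, 10 genes with identifiers starting AT2G07 were examined in the counts. In 8 of them at least 92.9% of windows also occur in the mitochondrial genome, while ABCC13 and MCM5 share none. The summed share of the 8 was 427, 448 and 24.2 CPM in ore15-2, against 23.2, 25.3 and 29.9 in Col, the same arrangement as for the mitochondrial genes. AT2G07671 (chromosome 2, 3251566 to 3252341) had 119.3, 133.2 and 4.73 CPM in ore15-2 and 4.30, 4.82 and 4.77 in Col (log2 fold change 4.53 ± 0.99, SE; edgeR adjusted p = 0.0214). AT2G07727 had 116, 117 and 4.18 in ore15-2, against 4.65, 5.02 and 7.47 in Col (4.10 ± 0.98, adjusted p = 0.0305). In all, 6 of the 8 were called higher by edgeR and none lower, beside 6.47% and 3.43% of all genes. But 0 were called without ore15-2 replicate 1 or any 1 Col library, when 2.23% to 3.52% of all genes were called higher. Without ore15-2 replicate 1, 6 kept an unadjusted p under 0.05 by edgeR, beside 20.7% of all genes. Without any 1 Col library all 8 did, beside 17.1% to 19.5% of all genes. From these counts, transcripts of the nuclear copy and of the mitochondrion cannot be told apart.

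**Figure D4:**
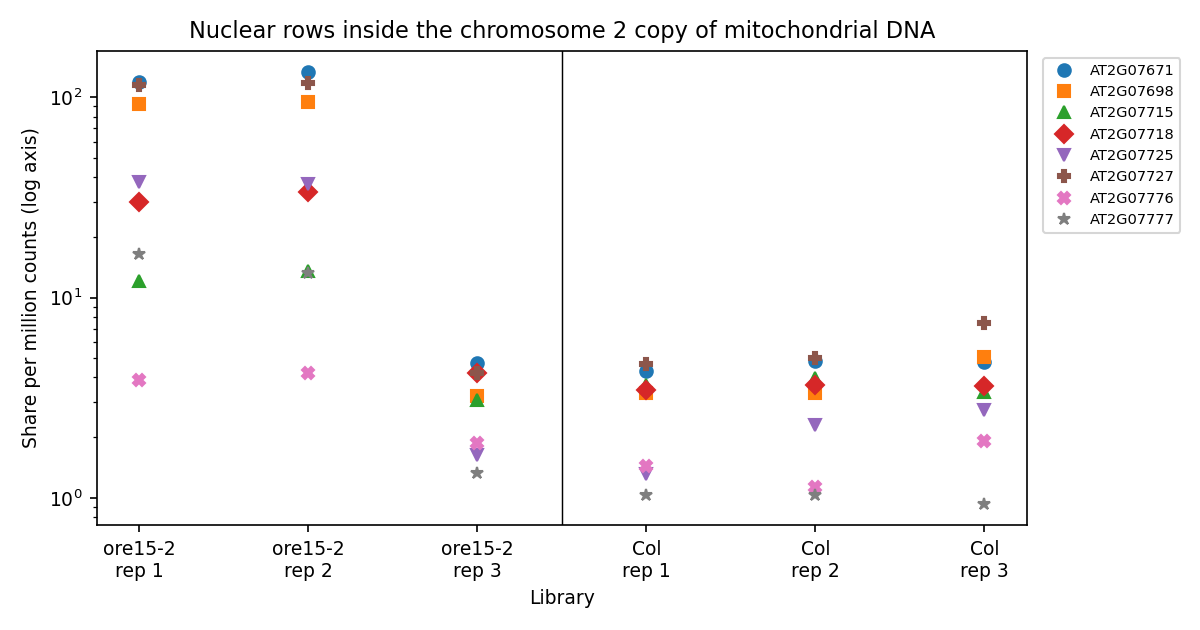
Share in CPM (log axis) of the 8 nuclear genes inside the chromosome 2 copy of mitochondrial DNA, by library, with ore15-2 left of the line and Col right of it. All 8 are highest in ore15-2 replicates 1 and 2, the most so AT2G07671 (119.3 and 133.2 CPM), and ore15-2 replicate 3 is near the Col values.

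Nuclear genes for partners of these genes were examined in lists by function. None of 33 nuclear subunits of the respiratory complexes was called by edgeR, 10 had an unadjusted p under 0.05 (26.9% of all genes did), and the median log2 fold change was 0.35. DESeq2 called 5 higher (8.89% of all genes) and limma-voom called 0 (11 at an unadjusted p under 0.05, as had 26.6% of all genes). The smallest p were those of AT4G32470 (508, 602 and 462 CPM in ore15-2 and 387, 384 and 393 in Col; adjusted p = 0.0650) and AT4G37830 (adjusted p = 0.0736). Without ore15-2 replicate 3, 26 of the 33 were higher (18.7% of all genes), and without replicates 1 and 2, 4 were higher and 1 lower (11.0% and 5.63% of all genes).

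Of 8 tested genes for organelle RNA polymerases and the sigma factors that guide the plastid enzyme, 1 was higher and none lower. Of all genes, 6.47% were higher and 3.43% lower. The median log2 fold change of the 8 was -0.19. The gene called higher was ATSIG5, a sigma factor, with 31.3, 18.9 and 24.4 CPM in ore15-2 and 18.6, 19.3 and 19.0 in Col (0.63 ± 0.15, SE; edgeR adjusted p = 0.0352). That call was absent with upper-quartile scaling, with limma on log2 RPKM, without ore15-2 replicate 1 and without any 1 Col library. Without ore15-2 replicate 3, ATSIG5 was higher and 3 of the 8 were lower (PDE319, SIG3 and ATSIG6), beside 18.7% and 16.6% of all genes. None of 7 genes for organelle RNA processing and decay was called by edgeR, DESeq2 or limma-voom, and their median by edgeR was -0.32. At an unadjusted p under 0.05 there were 2 by edgeR, 2 by DESeq2 and 1 by limma-voom. The shares of all genes were 26.9%, 26.0% and 26.6% in the same order. Without ore15-2 replicate 3, 3 of these 7 were lower, beside 16.6% of all genes.

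Of 14 listed genes that mitochondrial dysfunction is known to induce, 8 were in the table and tested. By edgeR 3 were higher in ore15-2 and none lower, beside 6.47% and 3.43% of all genes. BCS1, an outer membrane AAA protein, had 5.22, 3.44 and 4.61 CPM in ore15-2 and 2.01, 1.52 and 1.81 in Col (1.53 ± 0.21, SE; edgeR adjusted p = 0.00225). AT5G51440 had 21.3, 26.6 and 22.2 in ore15-2, against 10.9, 10.1 and 9.85 in Col (1.44 ± 0.18, adjusted p = 0.00163). NDB2, an alternative NADH dehydrogenase, had 203, 188 and 211 in ore15-2 and 170.2, 170.02 and 165 in Col (0.50 ± 0.12, adjusted p = 0.0265). In these 3 genes, unlike the organelle-encoded ones, ore15-2 replicate 3 lay with replicates 1 and 2. BCS1 and AT5G51440 were called in every fit that left out 1 library, while NDB2 was not called without ore15-2 replicate 1 or any 1 Col library. AOX1A, the alternative oxidase, was not called by edgeR (0.42 ± 0.12, adjusted p = 0.0568). It was called higher by DESeq2 and by edgeR without ore15-2 replicate 3. Without ore15-2 replicate 3, 4 of the 8 were higher and 1, NDA2, was lower, beside 18.7% and 16.6% of all genes. NDA2 had 12.1, 8.75 and 17.9 CPM in ore15-2, against 20.9, 19.6 and 19.1 in Col. The median of the 8 was 0.38.

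Nuclear photosynthesis genes went both ways, with 3 of 23 higher (6.47% of all genes), 6 lower (3.43% of all genes) and a median of -0.30. RBCS3B, a small subunit of Rubisco, had 16.7, 16.9 and 5.82 CPM in ore15-2 and 1.49, 2.07 and 2.70 in Col (2.86 ± 0.48, SE; edgeR adjusted p = 0.00643). RBCS2B and AB165, a chlorophyll-binding protein, were also higher. PSAD-1, a photosystem I subunit, was lower, with 21.5, 19.2 and 25.3 in ore15-2, against 46.1, 56.6 and 47.3 in Col (-0.94 ± 0.11, adjusted p = 0.00126). Leaving out ore15-2 replicate 1 gave 1 higher and 2 lower (3.52% and 1.36% of all genes), and leaving out Col replicate 1 gave 1 and 1 (2.39% and 1.59%). Col replicate 2 gave 2 and 1 (2.23% and 1.15%), and Col replicate 3 gave 4 and 1 (2.95% and 1.43%). Leaving out ore15-2 replicate 2 gave 3 and 10 (7.30% and 3.95%), ore15-2 replicate 3 gave 7 and 7 (18.7% and 16.6%), and ore15-2 replicates 1 and 2 together gave 3 and 17 (11.0% and 5.63%).

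As a measure of green tissue in the tips, 11 of 12 nuclear markers of green shoot were in the table, none at 0 in a library. Their summed share was 614.5, 628.9 and 432.0 CPM in ore15-2 and 592.1, 644.5 and 604.9 in Col. In ore15-2 replicates 1 and 2, where the chloroplast genes were at their highest, this unscaled sum was within the Col range. In replicate 3 the sum was below that range. The TMM factors of ore15-2 replicates 1 and 2 (0.923 and 0.786) were smaller than those of Col (1.11, 1.08 and 1.09). Scaling by these factors would put the sums of replicates 1 and 2 above every Col library, so their position depends on the scale. Individual markers of the list differed in both directions by edgeR. RBCS2B, RBCS3B and AB165 were called higher, beside 6.47% of all genes. LHCA1 (log2 fold change -0.56, edgeR adjusted p = 0.0402) and LHCB5 (-0.63, edgeR adjusted p = 0.0236) were called lower, beside 3.43% of all genes. The part of these markers in the chloroplast result was not tested. In bulk root tips, a change in the number of cells of a type and a change in RNA per cell cannot be told apart.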

How the data were processed

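RNA-seq of 6 root tip libraries was analysed. The authors deposited read counts for 18734 genes and RPKM values for 18340 of them, made with FastQC, cutadapt, TopHat2 and HTSeq on TAIR10, per the submitters' processing notes. Strand setting and handling of multiply placed reads were not given in the sources used here. Overlapping antisense genes may therefore not be separated. The deposited RPKM values gave whole-number gene lengths (within 0.01 base) for 100% of genes when divided by the total over the RPKM genes, so they restate the counts.

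Shares are counts over the library total, with Wilson 95% intervals. A floor of 3 counts was 0.148 to 0.469 CPM. Class sums were compared by exact permutation over libraries. Counts were tested with edgeR 4.0.16 (quasi-likelihood F-test, TMM, filterByExpr, genotype as the only term) and Benjamini-Hochberg adjustment, and the SE is the absolute log2 fold change over the square root of F. DESeq2 1.42.0 and limma 3.58.1 were alternatives. The code was tested on simulated data. All pairs of libraries differed by more than sampling noise (lowest chi-square per gene 2.14). By this measure over all genes, ore15-2 replicate 3 was nearer to the Col libraries (20.1 to 23.0) than to ore15-2 replicates 1 (29.2) and 2 (49.1). Replicates 1 and 2 of ore15-2 differed by 7.00.

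Of the 32 genes, 23 were matched to TAIR10.1 by symbol, and deposited and reference lengths were equal in 19 of 20. Names of the rest are those of the deposited table. Uniqueness was counted over 50-base windows.

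All rRNA genes were to be named, with the 10 mitochondrial and 8 chloroplast protein-coding genes of highest RPKM and the 3 largest changes in each direction per organelle, and from each nuclear list up to 3 called genes or the 2 of smallest p. All 32 members are given. The members, the gene lists and the marker lists were chosen with earlier results of these data known.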

Additional observations from a re-analysis of the deposited data

How the results depend on the processing

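Differences in class shares kept their direction with nuclear counts, or counts other than mitochondrial rRNA, as denominator, with unique or matched genes alone, and with the chromosome 2 genes added. Leaving out ore15-2 replicates 1 and 2 together changed direction for the other mitochondrial genes (-0.20) and the chloroplast genes (-0.54). The log2 ratio of rRNA to other counts, near 0, became 0.12 as a ratio of means and 0.83 without those replicates. Leaving out 1 library at a time gave 2.19 to 3.82 for the rRNA share, 2.02 to 4.25 for the other mitochondrial share, 1.61 to 3.81 for the chloroplast share and -0.43 to 0.23 for the ratio (0.23 without ore15-2 replicate 1, 0.17 without ore15-2 replicate 2, 0.02 without Col replicate 2).

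Calls over all genes ranged from 634 to 6612 with 1 library left out (main count 1854) and were 3109 without ore15-2 replicates 1 and 2. Mitochondrial calls ranged from 0 to 20, and chloroplast calls from 0 to 12. Without ore15-2 replicates 1 and 2, 4 mitochondrial genes were called in either direction. With limma-voom, 2 mitochondrial and 1 chloroplast genes were called. A filter of 5 CPM in 3 libraries left 5 mitochondrial genes, all called. It left 1 chloroplast gene, with 0 called (0 at an unadjusted p under 0.05). Fewer genes were tested in that fit, and 985 of 15625 genes in all were called higher. ATMG00090, COX1 and TIC214 passed this filter only through their high ore15-2 libraries, so calls among the genes left are not separate support.

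Without ore15-2 replicates 1 and 2, 24 genes changed direction: PSBA -0.14, ATPA -1.59, RPOB -0.14, PSAB -1.25, PSAA -0.60, ATPB -2.32, RBCL -1.51, ACCD -1.08, CLPP1 -0.49, RPL14 -0.61, TIC214 -0.51, NAD5 (ATMG00060) -1.23, NAD5 (ATMG00513) -0.021, NAD9 -0.39, mitochondrial RPL16 -0.31, ATMG00090 -0.75, COX2 -0.33, NAD7 -0.73, MATR -0.089, NAD4 -0.33, ORF25 -0.61, NAD4L -0.64, COX3 -0.33 and COX1 -0.47. No other alternative changed the direction of a member's log2 fold change. Over members and alternatives, 288 values kept direction and side of the threshold, 190 kept direction but missed it, and 10 passed it newly. Except where stated, the cause was not tested.

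Replicate numbers do not pair the libraries: deviations of same-numbered libraries correlated at 0.107, 0.150 and -0.229. With the replicate number as a block, 16 mitochondrial, 5 chloroplast and 1641 genes in all were called. The class differences are the same with the block by arithmetic (2.76, 2.77 and 2.36). Their exact permutation p, by sign flips of same-numbered pairs, became 0.25, 0.5 and 0.5. The smallest p that such flips allow is 0.25.

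For chloroplast rRNA there was no value. Depth limits the chloroplast genes most, with 4 to 73 counts each in ore15-2 replicate 3.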
